A study of Mus musculus with 2 samples.

Results

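Mir451a, Mir144 and Mir486 are the microRNA genes best known from red blood cell precursors, and their levels were measured in embryonic mouse heart. They were picked by name through their GENCODE M21 symbols, and all 3 were found among the 1973 microRNA genes of the count tables. The tables come from small RNA of microRNA size from whole heart at embryonic day 12.5, from embryos of strain B6NCrl with males and females pooled and no treatment or modified allele named in the labels. There were 2 biological replicates, 1 library each, and both carry the same donor label. All samples formed 1 group, so no conditions can be compared, and what can be asked is how abundant these genes were and whether the 2 libraries gave the same picture.

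Mir144 and Mir451a lie side by side and are known to be made from 1 primary transcript that the erythroid factor GATA1 switches on. Most microRNA hairpins are trimmed by Dicer, but that of miR-451a is known to bypass Dicer and to be cut by Argonaute 2, the slicing protein of the silencing complex. In erythroid cells miR-451a is known to restrain the 14-3-3 protein Ywhaz, and miR-144 the antioxidant factor Nfe2l2. Mir486 lies in Ank1, which encodes the red cell membrane protein ankyrin 1, and is also known from skeletal and heart muscle. It is therefore not known as a marker of red cells alone.

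The mature sequences of the neighbouring pair are shown because the counts of these genes rest on reads of such sequences. They are from RefSeq on GRCm38.p6, written 5′ to 3′ with the seed, bases 2 to 8, in capitals. RefSeq's table held 2 of the 3 genes, and Mir486 is named only.
miR-451a, chr11:78073186-78073207, plus strand: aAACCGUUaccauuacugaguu
miR-144-3p, chr11:78073047-78073066, plus strand: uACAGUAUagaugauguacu
miR-144-5p, chr11:78073010-78073032, plus strand: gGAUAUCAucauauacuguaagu
The 3 seeds differ from each other. None of them was the seed of another of the 1679 mature microRNAs in the table. The nearest relative by seed was miR-101a-3p, which matches the first 6 seed bases of miR-144-3p and differs in the last.
miR-101a-3p, chr4:101346957-101346977, minus strand: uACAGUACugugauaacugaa
Its gene, Mir101a, stood at 262 CPM, sense counts scaled to 1000000 per library, in replicate 2 and 246 CPM in replicate 1.

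The hairpins of the pair are built differently, and they are shown with the mature parts in capitals.
Mir451a, chr11:78073170-78073241, plus strand: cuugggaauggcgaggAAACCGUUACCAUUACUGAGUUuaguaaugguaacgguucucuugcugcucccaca
Mir144, chr11:78073005-78073070, plus strand: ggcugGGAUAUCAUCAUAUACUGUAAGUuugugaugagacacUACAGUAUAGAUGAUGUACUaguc
In the structure predicted by RNAfold, miR-451a occupied bases 17 to 38 of its 72-base hairpin and ran through the whole 4-base loop at bases 35 to 38, with 17 of its 22 bases paired. The predicted loop of Mir144, 6 bases at 31 to 36, held no base of either mature arm. The predicted folding energy was −43.3 kcal/mol for Mir451a and −28.6 kcal/mol for Mir144. These are predictions from sequence and not measurements.

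**Figure D1:**
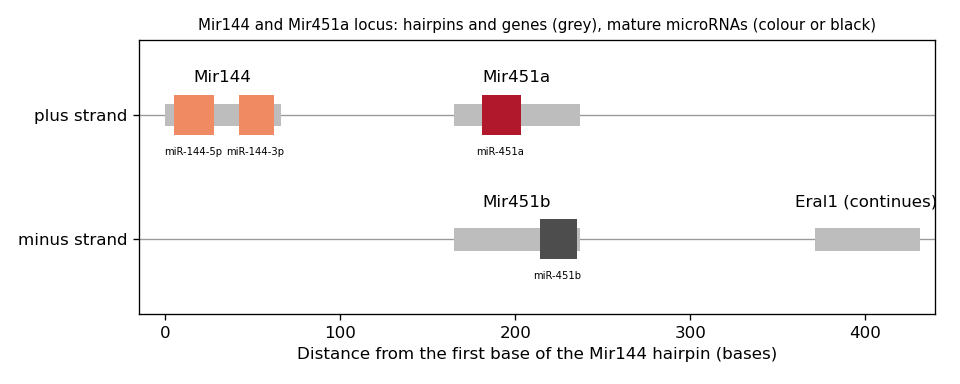
Positions of the Mir144 and Mir451a hairpins, their mature microRNAs and the genes beside them; the x axis is the distance in bases from the first base of the Mir144 hairpin, and the strands are drawn as separate lines. The 2 hairpins lie 99 bases apart on the plus strand, Mir451b lies opposite Mir451a, and Eral1, which runs on past the right edge, has its nearer end 134 bases beyond Mir451a.

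In GENCODE M21, on the mouse assembly GRCm38 (mm10), Mir144 (ENSMUSG00000065401.1) and Mir451a (ENSMUSG00000070065.1) lie on chromosome 11 on the plus strand, where no further gene is annotated over them. The 2 hairpins are 99 bases apart. Mir451b is annotated on the minus strand over exactly the positions of Mir451a, and the 2 hairpins are reverse complements of each other. Mir486 (ENSMUSG00000070084.3) lies on chromosome 8, plus strand, at 23142555 to 23142682. Of the 17 annotated Ank1 transcripts 15 span it, and in each of these it falls in an intron. Mir3107 is annotated opposite it on the minus strand, from 23142573 to 23142662, within the longer antisense gene Gm15816, which spans 23138794 to 23149585. Mir451b and Mir3107 have no row of their own in the tables, so reads placed on them would appear as antisense counts of Mir451a and Mir486.

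Replicate 2 held 10601121 reads and 5279908 sense counts over all microRNA genes, and replicate 1 held 9235580 reads and 4478599 sense counts. CPM is scaled to these sums. It is not divided by gene length, since each gene is read through short mature RNAs of like length. Reads that fit several places, 25.3% and 27.1% of all reads in replicates 2 and 1, belong to no gene's count. Where a gene had 0 counts, its level could still be as high as 0.568 CPM (replicate 2) or 0.670 CPM (replicate 1). Intervals below are 95% exact intervals of counting error only. As a check of the tissue label, the cardiac Mir208b, from an intron of the myosin gene Myh7, stood at 50918 ± 1313 CPM (SD, n = 2).

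By sense counts, Mir451a was the most abundant of the 3 genes, Mir144 stood well below it, and Mir486 was lowest, in that order in both libraries. Together they took 0.186% of the sense counts in replicate 2 and 0.0986% in replicate 1, a mean of 0.142% ± 0.0617 (SD, n = 2). Mir451a made up 90.0% of their counts in replicate 2 and 78.1% in replicate 1. In such bulk libraries, fewer cells of a type and less RNA per cell cannot be told apart.

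Mir451a had 8825 counts in replicate 2 and 3447 in replicate 1. These were 1671 CPM (interval 1637 to 1707) and 770 CPM (interval 744 to 796). Replicate 2 was the higher, and the intervals lay far apart. The mean was 1221 ± 638 CPM (SD, n = 2), an SD of 52.2% of the mean, and the gene stood 66th of all genes in replicate 2 and 93rd in replicate 1. Its neighbours by mean level were Mir27b at 1307 ± 92.3 CPM and Mir301 at 1255 ± 234 CPM above it, and Mir145a at 1204 ± 105 CPM and Mir337 at 1192 ± 70.6 CPM below it. None of the 4 differed from Mir451a by more than the SD of Mir451a. The place of Mir451a in the order is thus not fixed by these libraries.

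Mir144, from the same primary transcript, had 738 counts in replicate 2 and 698 in replicate 1. These were 140 CPM (interval 130 to 150) and 156 CPM (interval 145 to 168). The libraries were close, and the intervals overlapped. The mean was 148 ± 11.4 CPM (SD, n = 2), an SD of 7.69% of the mean, at position 164 in replicate 2 and 157 in replicate 1. Mir1306 and Mir152 stood directly above it and Mir200b directly below it, each within the SD of Mir144. The next below, Mir574 at 131 ± 17.7 CPM, differed from Mir144 by less than its own SD.

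Mir486 had 247 counts in replicate 2 and 270 in replicate 1. These were 46.8 CPM (interval 41.1 to 53.0) and 60.3 CPM (interval 53.3 to 67.9). Replicate 1 was the higher, and the intervals came close without overlapping. The mean was 53.5 ± 9.55 CPM (SD, n = 2), an SD of 17.8% of the mean, at position 223 in replicate 2 and 208 in replicate 1. Its neighbours Mir615, Mir670, Mir701 and Mir96, between 51.6 and 59.6 CPM on average, differed from it by less than its spread. Reads that fit both Mir486 and Mir3107 opposite it would be in neither count. No sequence of Mir486 was at hand to judge how many these are. The level of Mir486, its position and its ratios to the other members are thus uncertain, and the level could be too low.

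**Figure D2:**
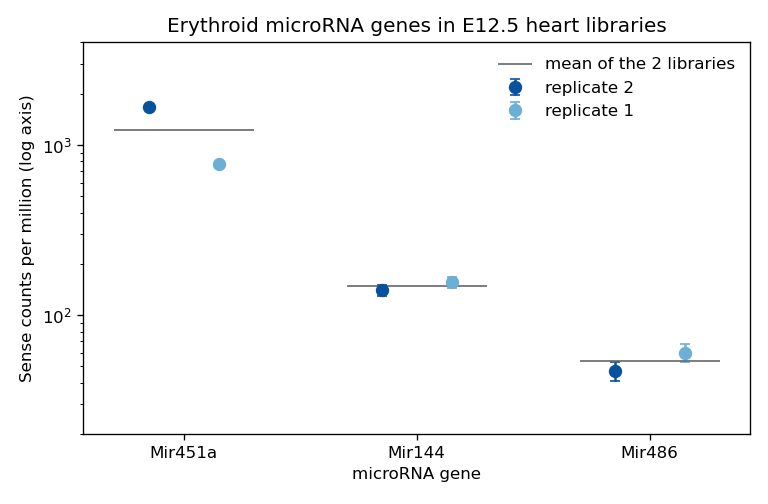
CPM of the 3 genes in replicate 2 (dark) and replicate 1 (light), on a log axis; bars are 95% exact counting intervals, smaller than the points for Mir451a, and grey lines are means. Mir451a reads 1671 and 770 CPM, while Mir144 stays at 140 and 156 CPM and Mir486 at 46.8 and 60.3 CPM.

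**Figure D3:**
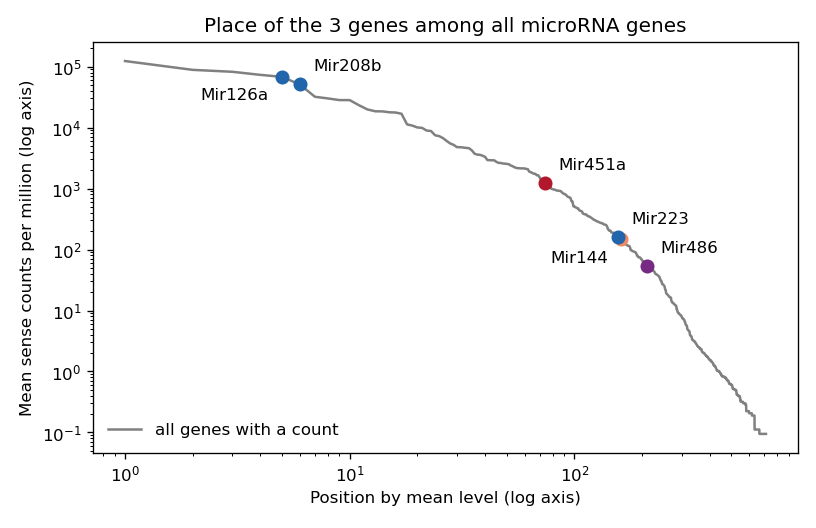
Mean level in CPM against position by level for all 712 genes with a count, both axes logarithmic; the 3 genes and 3 markers of other cell types are marked. Mir451a, Mir144 and Mir486 stand at positions 74, 162 and 211, below the cardiac Mir208b and the endothelial Mir126a.

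The genes at the shared locus did not keep 1 ratio. Mir451a exceeded Mir144 by 12.0 times in replicate 2 (interval 11.1 to 12.9) and by 4.94 times in replicate 1 (interval 4.55 to 5.36). The ratio of replicate 2 was 2.42 times that of replicate 1, and the intervals did not overlap. Mir451a exceeded Mir486 by 35.7 times in replicate 2 (interval 31.5 to 40.7) and by 12.8 times in replicate 1 (interval 11.3 to 14.5). Here too the ratio differed between the libraries, by 2.80 times.

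Mir144 and Mir486, which lie on different chromosomes, kept nearly the same ratio. Mir144 exceeded Mir486 by 2.99 times in replicate 2 (interval 2.58 to 3.47) and by 2.59 times in replicate 1 (interval 2.24 to 2.99), and these intervals overlapped. Without Mir451a, the other 2 genes had a joint level of 187 CPM in replicate 2, against 216 CPM in replicate 1. The difference in their joint share between the libraries thus came from Mir451a alone. Ratios within a library need no scaling between libraries. With 2 libraries, the spread of these ratios beyond counting error could not be tested.

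**Figure D4:**
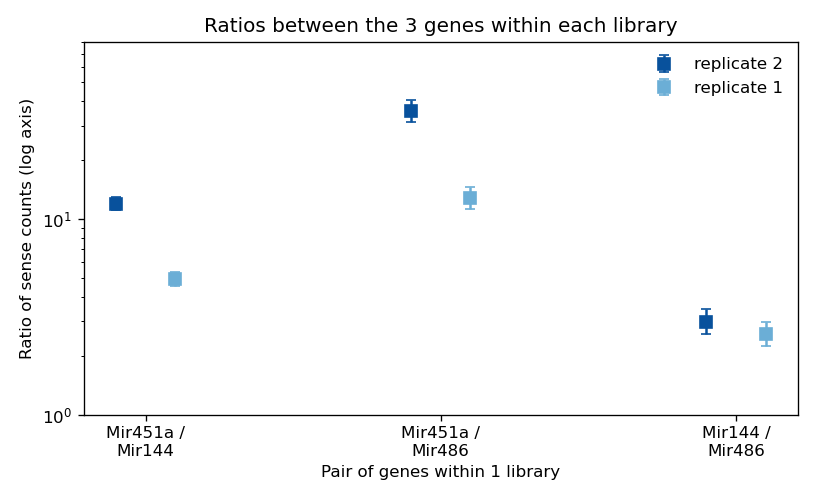
Ratios of sense counts between the 3 genes within replicate 2 (dark) and replicate 1 (light), on a log axis, with 95% exact counting intervals. Mir451a over Mir144 is 12.0 and 4.94, Mir451a over Mir486 is 35.7 and 12.8, and Mir144 over Mir486 is 2.99 and 2.59.

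Between the libraries, Mir451a was higher in replicate 2 by a ratio of 2.17 (interval 2.09 to 2.26), or 1.12 on the log2 scale. Genes were called here by a two-sided exact binomial test of the 2 counts, adjusted by Benjamini-Hochberg over 712 genes, at an adjusted p of 0.05 with at least a 2-fold ratio. Mir451a was the only gene of the 712 called higher in replicate 2, so that share of 0.14% is Mir451a itself. A further 2 genes, or 0.281%, were called lower. Mir144 and Mir486 were not called. The test holds counting error alone and compares these libraries, not conditions, and the difference has no replicate check.

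Mir144 had a log2 ratio of −0.16 (ratio 0.897, interval 0.808 to 0.996), with an adjusted p of 0.188 in the exact binomial test. Mir486 had a log2 ratio of −0.37 (ratio 0.776, interval 0.650 to 0.926), with an adjusted p of 0.0261 in the same exact test, short of the 2-fold minimum. At any ratio the test passed 8.01% of all genes as higher and 8.71% as lower in replicate 2, so passing it without the minimum was not rare. With an edgeR exact test that adds the common dispersion of the 2 libraries, the adjusted p was 0.00276 for Mir451a and 1 for the others. That dispersion comes from the same 2 libraries.

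Among the 214 genes that averaged 50 CPM or more, the median absolute log2 ratio between the libraries was 0.11. By that measure Mir451a stood second, after the liver microRNA Mir122, with Mir486 at position 15 and Mir144 at position 75. Among all 444 genes with at least 10 counts, where the median was 0.20, Mir451a stood at position 23, Mir486 at 118 and Mir144 at 259. Mir122 went the other way, with 171 counts (32.4 CPM) in replicate 2 and 809 counts (181 CPM) in replicate 1. Among genes of at least 50 CPM, those whose log2 ratio lay nearest that of Mir451a were Mir181b-2 at 0.58, Mir362 at 0.56 and Mir425 at 0.55. None of these came within 0.54 of it, and with 2 libraries this likeness rests on 1 value per gene. The next highest was Mir30b at 0.40. The lowest after Mir122 were Mir615, Mir10b, Mir196b and Mir6236, from −0.71 to −0.43.

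**Figure D5:**
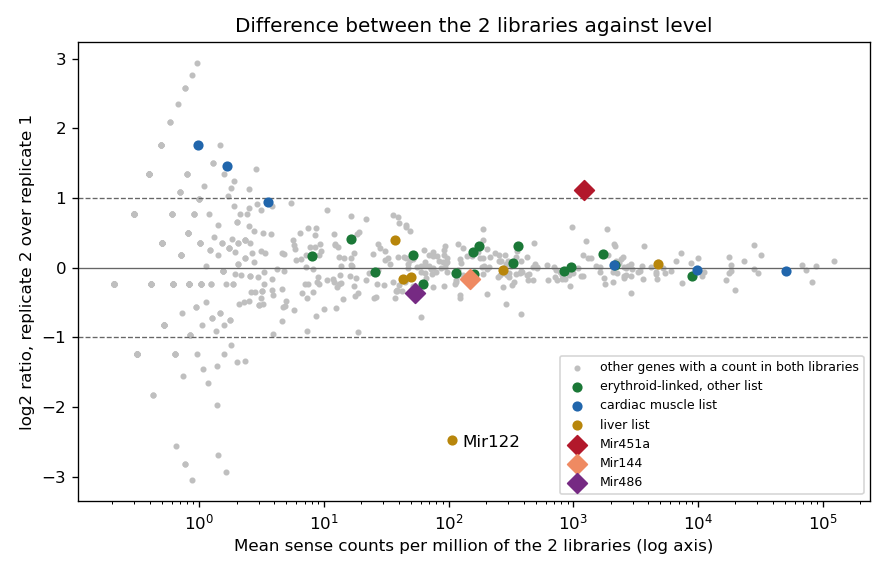
Log2 ratio of CPM, replicate 2 over replicate 1, against mean CPM on a log axis for genes with a count in both libraries; dashed lines mark a 2-fold ratio in either direction, and colours mark the 3 genes and 3 lists. Mir451a, at a log2 ratio of 1.12, and Mir122, at −2.48, stand apart from genes of like level, while Mir144 lies at −0.16 and Mir486 at −0.37.

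Of 20 genes on a list of other microRNAs linked to red cell formation, 16 have a row in the tables, and all 16 had at least 10 counts. At least 2-fold apart stood 0 of the 16, with log2 ratios from −0.24 to 0.41 and a median of 0.05. Over all 444 genes with at least 10 counts, 3.15% stood at least 2-fold higher and 2.48% at least 2-fold lower in replicate 2, with a median of 0.00. A count of 0 among 16 genes is near these shares and is no result about the list. By the exact binomial test at any ratio, 4 of the 16 passed as higher in replicate 2, namely Mir16-1, Mir16-2, Mir155 and Mir182. Mir22 was the 1 that passed as lower. Over all 712 genes, 8.01% passed as higher and 8.71% as lower. The 712 take in genes of fewer than 10 counts, which can hardly pass, while the 16 hold none. The shares are thus not a like background, and these passes are no result about the list. The summed level of the 16 was 15926 CPM in replicate 2 and 16248 CPM in replicate 1, of which Mir22 alone held 8569 and 9283 CPM. Many of these genes are known from other cells of the heart as well.

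Mir16-1 and Mir16-2, whose microRNA is known to rise as red cells mature, had log2 ratios of 0.19 and 0.31. Reads that fit both copies are in neither count, so their levels are uncertain. Other genes of the list went either way. Mir222 stood at 0.41 and Mir182 at 0.31, Mir15a at 0.03 and Mir15b at −0.05, and Mir22 at −0.12 and Mir363 at −0.24. Mir210, which is linked to hypoxia and erythroid differentiation, stood at 967 CPM in replicate 2 and 962 CPM in replicate 1. Mir221 and Mir222, which hold back the receptor Kit in early progenitors and decline as red cells form, stood at 25.2 and 18.8 CPM in replicate 2 and at 26.3 and 14.1 CPM in replicate 1.

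Markers of other cell types are given beside the Mir451a difference, and their part in it was not tested. The cardiac muscle list had a sum of 61933 CPM in replicate 2, against 63962 CPM in replicate 1, with 6 of its 7 genes in the tables. Mir208b alone held 49990 and 51846 CPM of this, so the sums mainly reflect Mir208b. The median log2 ratio of the 6 genes was 0.49. The list's 2 members at least 2-fold apart, Mir133a-1 and Mir133a-2, were higher in replicate 2 and had at most 13 counts in a library. As for Mir16-1 and Mir16-2, reads that fit both copies are in neither count, so these low levels are uncertain. Mir1a-1, at 25 and 11 counts, had a log2 ratio of 0.95. Of all 444 genes with at least 10 counts, 3.15% stood at least 2-fold higher and 2.48% lower in replicate 2. With so few counts, the 2 members are no result about the list. The endothelial Mir126a stood at 68770 and 67024 CPM in replicates 2 and 1. The liver list summed to 5273 and 5274 CPM, of which Mir483 held 4843 and 4688 CPM. The near-equal sums thus mainly reflect Mir483. Mir122, lower in replicate 2, was the 1 member of 6 at least 2-fold apart, beside the shares of all genes given above. The white blood cell list shares Mir150, Mir155 and Mir223 with the list of red cell formation. Of its 8 genes 7 have a row and the sum was 4467 and 3641 CPM, of which Mir342 held 4121 and 3310 CPM. Its myeloid member Mir223 stood at 155 and 166 CPM and Mir155 at 167 and 144 CPM. Mir142b had 0 sense counts in both libraries, and the 4951 and 4901 reads opposite it fall where Mir142 is annotated. These reads are outside the sum of the list. They are not scaled to library size, and replicate 2 is the deeper library. Scaled to the sense totals, these reads stood lower in replicate 2, the other way from the sum of the list.

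Set against these markers within a library, Mir208b exceeded Mir451a by 29.9 times in replicate 2 and 67.4 times in replicate 1. For Mir144 the same ratio was 358 in replicate 2 and 333 in replicate 1. Mir144 stood at 0.902 times the level of Mir223 in replicate 2 and 0.939 times in replicate 1. Mir451a exceeded Mir223 by 10.8 times in replicate 2 and 4.64 times in replicate 1. Beside Mir208b and Mir223, Mir144 thus held its place, while Mir451a did not. Neither marker stands for its whole list. Beside Mir122, Mir144 did not hold its place, at 4.32 times its level in replicate 2 and 0.863 times in replicate 1.

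Opposite the pair almost no reads were counted, whereas Mir486 had a steady antisense share. Mir451a had 1 antisense count beside 8825 sense counts in replicate 2, and 0 beside 3447 in replicate 1. The Clopper-Pearson interval of the latter share reached up to 0.107%. Mir144 had 0 beside 738 in replicate 2 (interval up to 0.499%) and 0 beside 698 in replicate 1 (interval up to 0.527%). At Mir486, 37 of 284 reads were antisense in replicate 2 (13.0%, Clopper-Pearson interval 9.34 to 17.5%) and 38 of 308 in replicate 1 (12.3%, interval 8.88 to 16.5%). These shares did not differ beyond counting error.

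No mature sequence of the pair was found whole in another of the 1005 hairpins of the RefSeq table, on either strand, leaving aside that Mir451b is the reverse complement of Mir451a. The longest stretch miR-451a shared with another hairpin was 16 bases, its bases 2 to 17, in Mir451b. That stretch takes in the seed. The longest stretch was 10 bases for miR-144-3p and 9 bases for miR-144-5p. The genome outside these hairpins was not searched.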

How the data were processed

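The authors deposited raw read counts for each microRNA gene, 1 table per library without pooling. Per the labels and the deposited descriptions, reads were placed on mm10 with annotation M4. Which aligner and counter were used is not given in the sources. Column meanings (without regard to strand, sense, antisense) were inferred from the column sums. The 4 rows that name no gene stayed out of the totals.

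Names and positions came from GENCODE M21, in which 1894 of 1973 identifiers were found, and sequences from RefSeq on GRCm38.p6. CPM used the sum of sense counts. With 1 group, the comparison set 2 libraries side by side by an exact binomial test, tested on simulated data first. The simulated counts held counting error only, as the test assumes, so they do not show how it behaves under wider spread. Alternatives changed the strand column, denominator, scaling, filter, pseudocount of 1 and test, and left out each replicate. The named genes were the members, list members, 2 neighbours by level on each side, the 5 highest and 5 lowest ratios at 50 CPM or more and the 3 ratios nearest that of Mir451a. Mir101a was named for its seed. The members, lists and tests were chosen with earlier results of these data known. Tools were Python 3.11.15, scipy 1.17.1, pandas 2.3.3, matplotlib 3.10.9, ViennaRNA 2.7.2, R 4.3.3, edgeR 4.0.16 (TMM, exact test) and DESeq2 1.42.0 (size factors).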

Additional observations from a re-analysis of the deposited data

Results flagged for a closer look

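Antisense counts at Mir486, which lie outside the sense counts used for the levels, averaged 7.75 ± 1.04 CPM (SD, n = 2) of the sense totals. With 37 and 38 reads in replicates 2 and 1, they stood above the limit of 3 counts that a count of 0 allows. Mir3107 and the antisense gene Gm15816 are annotated on that strand, and the part of either in these reads was not tested.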

How the results depend on the processing

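The order of the 3 genes and the direction of each difference between the libraries held under every alternative run. A changed denominator is shared by the 3 genes and cannot change their order. No alternative gave reads that fit several places back to a gene. Whether Mir486 is undercounted for that reason was thus not tested. Over all reads, Mir451a moved to 603 CPM, Mir144 to 72.6 CPM, Mir486 to 26.3 CPM and the share of the 3 genes to 0.0702%, and over gene counts plus reads that fit several places Mir451a moved to 801 CPM, Mir144 to 96.4 CPM and Mir486 to 34.9 CPM. These settings only enlarge the denominator. The ratio of Mir144 to Mir486 was 2.43 both with counts without regard to strand and with the antisense counts of Mir486 added to it. Without 1 replicate, Mir451a ranged from 770 to 1671 CPM, its ratio to Mir144 from 4.94 to 12.0 and the share of the 3 genes from 0.0986 to 0.186%. The log2 ratio of Mir451a lay between 1.12 and 1.16, and it was called under each of 7 alternatives. The adjusted p of Mir486 was 0.0624 in the exact binomial test over all reads and 1 in the edgeR exact test, so its small difference passes counting error alone under some settings. The number of genes called was 3, and from 2 to 4 under the alternatives. No paired analysis was possible because all samples form 1 group. With 2 libraries, no spread of a single library could be judged, and Mir486, at 247 and 270 counts in replicates 2 and 1, has the widest counting error of the 3 genes for its level, while Mir451a has the widest spread between libraries.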
